A study of Mus musculus with 24 samples.

Results

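Voltage-gated sodium channels, voltage-gated calcium channels and the hyperpolarization-activated HCN channels were described here by the transcript levels of their subunit genes. Genes were taken whose symbol in the array's annotation began with Scn or Hcn and a digit, or with Cacna, Cacnb or Cacng. A gene was kept when at least 1 of its probes had a detection p under 0.05 on 6 or more of the 24 arrays, and its brightest kept probe stood for it. Of 36 such genes with a probe, 26 were kept, among 11439 named genes kept on the array. They comprised 4 sodium channel alpha subunits, 3 sodium channel beta subunits, 6 calcium channel alpha1 subunits, 2 alpha2delta, 3 beta and 6 gamma subunits, and 2 HCN subunits.

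The series measured RNA of the cerebellum and the frontal cortex of untreated SJL/JOrlCrl mice, an inbred strain, at 10 weeks of age on Illumina bead arrays. The 24 arrays formed 4 groups of 6, namely female cerebellum, male cerebellum, female frontal cortex and male frontal cortex. Both tissues came from each of 12 animals, described as female and male littermates, with no genetic change, treatment or pooling given in the labels. Each tissue was a dissected piece holding many cell types, so fewer cells of a type and less RNA per cell cannot be told apart in any value below.

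Voltage-gated sodium channels open on depolarization and carry the upstroke of the action potential, and their beta subunits set gating and surface level. Voltage-gated calcium channels couple depolarization to transmitter release, firing patterns and gene regulation, with alpha1 subunits forming the pore and alpha2delta and beta subunits bringing it to the membrane. Most of the gamma subunits of the brain are known better as TARPs, auxiliary subunits of AMPA-type glutamate receptors, while HCN channels open on hyperpolarization and shape resting potential and rhythmic firing.

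Median array signals of 69.3 to 75.2 intensity units were recorded, and a member's probe was read from 20 to 76 beads per array (median 43). Precision is limited by the array number. Each of 6 granule cell markers and 4 Purkinje cell markers that were kept, of 8 listed each, was higher in cerebellum (median log2 differences 2.76 and 3.18). Each of 6 excitatory and 4 interneuron markers of cortex, of 8 and 5 listed, was lower there (-4.54 and -4.59). Gabra6, Neurod1 and Pcp2 were detected on 0 cortex arrays, Barhl1 on 3 and Slc1a6 on 5. Tbr1 and Vip were detected on 3 and 2 cerebellum arrays. Such markers passed the filter through 1 tissue, so their direction is no check of the tissues. On 2 cerebellum arrays, female replicate 4 and male replicate 3, the mean level of the cortical excitatory markers was 6.86 and 6.89 on the log2 scale, against 5.85 to 6.34 on the other 10. Tags in the labels, whose meaning they do not state, further split the samples into label batch a, with 2 arrays per group, and label batch b, with 4.

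Of the 26 genes, 21 differed between cerebellum and frontal cortex (limma adjusted p under 0.05), against 70.5% of all kept genes. Higher in cerebellum were 9 (background 37.6%), namely Scn1a, Scn2a, Scn2b, Cacna1a, Cacna1g, Cacnb4, Cacng2, Cacng5 and Cacng7. Lower were 12 (background 32.9%), namely Scn3a, Scn3b, Cacna1b, Cacna1d, Cacna1h, Cacna2d1, Cacna2d3, Cacnb1, Cacng3, Cacng4, Cacng8 and Hcn3. Scn3b and Cacng8 were detected on 3 and 1 of 12 cerebellum arrays and passed the filter through frontal cortex alone. Their lower direction was thus largely set by the filter. Differences of 1 or more on the log2 scale were found for 1 gene in the higher direction, Cacna1g (background 5.98%), and for 5 genes in the lower direction, Scn3b, Cacng3, Cacna1h, Scn3a and Cacna2d1 (background 7.96%). For 12 of the 26 genes the arrays of the tissues did not overlap, against 31.3% of all kept genes. The median size of the difference was 0.67 for the channel genes and 0.32 for all kept genes, with median signed differences of -0.08 and 0.03. Across all probes past the threshold 54.3% were higher in cerebellum, and 43.8% under median scaling in place of quantile normalization. That scaling moved the direction of 1 called member, Scn2a.

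**Figure D1:**
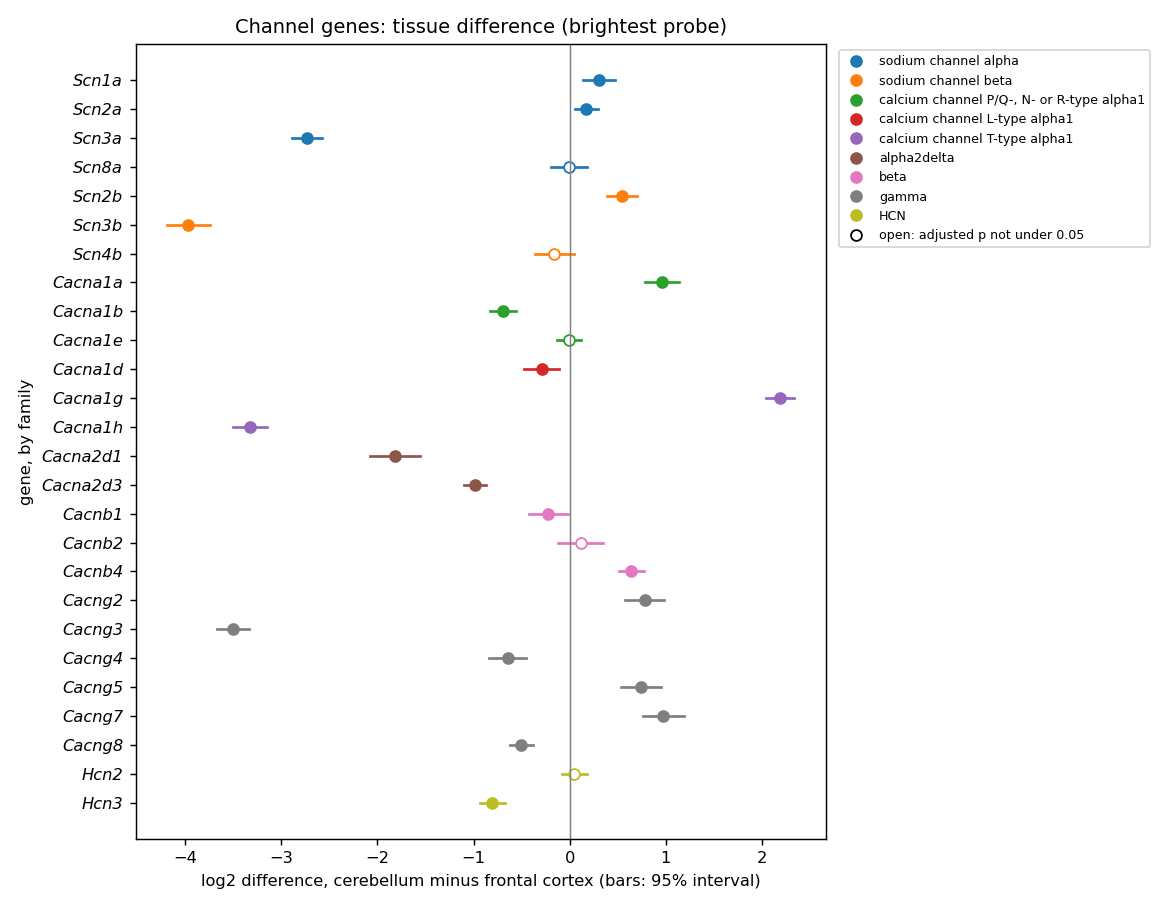
Log2 difference between cerebellum and frontal cortex for the 26 channel genes, grouped by subunit family, with the fitted value as a point and its 95% interval as a bar (12 arrays per tissue, brightest probe). Filled points passed an adjusted p of 0.05, and Cacna1g at 2.19 and Scn3b at -3.97 mark the ends of the range.

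Among the pore-forming sodium channel subunits, Scn3a was lower in cerebellum, Scn1a and Scn2a were slightly higher, and Scn8a did not pass the test. Scn3a encodes an alpha subunit known in rodents chiefly from the embryonic and early postnatal brain. Its log2 level had a lowest, median and highest value of 4.58, 5.04 and 5.28 in the cerebellum and of 7.45, 7.80 and 7.95 in the frontal cortex. Every cerebellum array lay below every cortex array, and the probe was detected on 11 of 12 cerebellum arrays. The gene was 6.65-fold lower in cerebellum (log2 difference -2.73 ± 0.07 SE, limma adjusted p = 6.5e-22), with -2.87 in females and -2.59 in males. Without background correction the difference was -1.51, in the same direction.

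Scn1a encodes the sodium channel of fast-spiking interneurons and Purkinje cells whose loss causes a severe childhood epilepsy. Its levels were 6.80, 7.36 and 7.55 (lowest, median, highest) in cerebellum and 6.68, 6.97 and 7.45 in frontal cortex. Most cerebellum arrays lay above the cortex median, but the ranges overlapped, and the difference of 0.31 ± 0.08 (1.24-fold, limma adjusted p = 0.0018) was positive in 10 of 12 animals. It fell to 0.18 under median scaling (adjusted p = 0.091) and to 0.17 in label batch a alone (adjusted p = 0.39). Scn2a, the alpha subunit of the axon initial segment of many excitatory neurons, had levels of 9.08, 9.49 and 9.70 in cerebellum and 9.09, 9.30 and 9.49 in frontal cortex. The ranges overlapped almost fully, and the difference of 0.17 ± 0.06 (1.13-fold, limma adjusted p = 0.01) was -0.0099 under median scaling (adjusted p = 0.92), 0.13 with cyclic loess (adjusted p = 0.051) and 0.14 in label batch a alone (adjusted p = 0.3). Scn8a, the main sodium channel of mature axon initial segments and nodes of Ranvier, had levels of 6.53, 6.98 and 7.36 in cerebellum and 6.60, 6.97 and 7.44 in frontal cortex. Its difference was -0.01, with a 95% interval from -0.20 to 0.18 (limma adjusted p = 0.95).

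The 3 sodium channel beta subunits went in different directions. Scn3b, a non-covalently bound beta subunit, had the largest difference of the 26 genes. Its levels were 4.25, 4.47 and 5.47 in cerebellum, where the probe was detected on 3 of 12 arrays, and 8.27, 8.63 and 8.76 in frontal cortex. No cerebellum array came near the cortex range. On the background-corrected scale Scn3b was at least 13.3-fold lower in cerebellum (fitted log2 difference -3.97 ± 0.11 SE, limma adjusted p = 5.7e-22). In this bound each cerebellum array counts at no less than the dimmest detected signal on it. The highest cerebellum values, 5.00 and 5.47, were those of the arrays with raised cortical markers, against 4.25 to 4.70 on the other 10. With these arrays left out, an alternative added after the data were seen, the fitted difference was -4.10. Without background correction it was -2.33, and in the authors' values -2.58. Both are smaller than the bound, which holds for the main processing alone.

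Scn2b, a beta subunit joined to the pore by a disulfide bond, had levels of 10.45, 10.81 and 10.97 in cerebellum and 9.91, 10.20 and 10.52 in frontal cortex. Only the edges of the ranges met, and it was higher in cerebellum in 12 of 12 animals (1.46-fold, log2 difference 0.55 ± 0.08, limma adjusted p = 3.8e-07, and 0.34 under median scaling). Scn4b, a beta subunit that is prominent in striatal neurons and Purkinje cells, had levels of 9.62, 9.92 and 10.09 in cerebellum and a wider range of 9.20, 9.97 and 10.81 in frontal cortex. Its difference of -0.16 ± 0.10 did not pass (95% interval -0.37 to 0.04, limma adjusted p = 0.15). It did pass with the animal as a fixed block (adjusted p = 0.041), under median scaling (-0.36, adjusted p = 0.0038), in label batch b alone (-0.25, adjusted p = 0.0087) and without female frontal cortex replicate 1 (-0.22, adjusted p = 0.03). In label batch a the difference was 0.00.

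The low-voltage-activated T-type calcium channels showed opposite tissue patterns in their 2 kept members. Cacna1g and Cacna1h both encode pores that open near the resting potential and support burst firing. Cacna1g had levels of 8.71, 8.96 and 9.36 in cerebellum and 6.46, 6.76 and 7.04 in frontal cortex. Every cerebellum array was above every cortex array, and the gene was 4.57-fold higher (2.19 ± 0.07, limma adjusted p = 2.5e-20). A dimmer kept probe of Cacna1g, detected on 10 cerebellum arrays and 0 cortex arrays, gave a fitted 0.64. Cacna1h had levels of 5.13, 5.54 and 6.20 in cerebellum and 8.67, 8.87 and 9.13 in frontal cortex. It was 10.0-fold lower in cerebellum (-3.33 ± 0.09, limma adjusted p = 2e-22), again with no overlap, and the levels of 5.58 and 5.84 on the arrays with raised cortical markers lay within the range of the other 10.

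**Figure D2:**
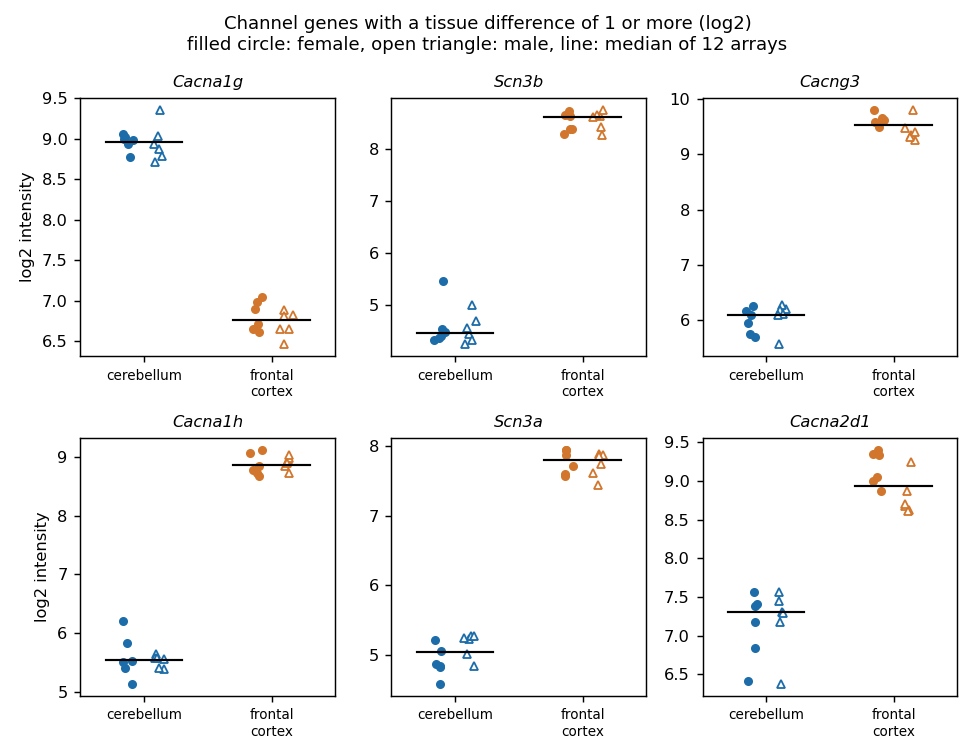
Log2 intensity on each array for the 6 channel genes with a tissue difference of 1 or more, with cerebellum left of frontal cortex, females as filled circles, males as open triangles and the median of 12 arrays as a line. The tissues did not overlap in any of the panels, and Cacna1g is the one gene with the higher level in cerebellum.

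Of the 3 high-voltage-activated pores outside the L-type, Cacna1a was higher in cerebellum, Cacna1b was lower and Cacna1e did not pass. Cacna1a encodes the P/Q-type channel that carries most calcium current of Purkinje cells and is mutated in inherited ataxias. Its levels were 5.77, 6.07 and 6.37 in cerebellum and 4.50, 5.06 and 5.64 in frontal cortex. The ranges did not overlap, and the gene was 1.95-fold higher in cerebellum (0.96 ± 0.09, limma adjusted p = 1e-10). Cacna1b, the N-type pore of many presynaptic terminals, had levels of 4.61, 4.87 and 5.05 in cerebellum, with 8 of 12 arrays detected, and 5.25, 5.51 and 5.81 in frontal cortex. It was 1.62-fold lower (-0.70 ± 0.07, limma adjusted p = 2.9e-10), and its dimmer probes, detected on 1 and 3 cerebellum arrays, gave fitted values of -0.48 and -0.64. Without background correction the differences of Cacna1a and Cacna1b were 0.40 and -0.25. Cacna1e, the R-type pore, was detected on 5 arrays of each tissue, too few for a fold (95% interval of the fitted difference -0.13 to 0.12).

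The single L-type pore kept was Cacna1d, a channel that activates at more negative potentials than its relative Cacna1c. Cacna1d levels were 5.13, 5.39 and 5.96 in cerebellum and 5.41, 5.64 and 6.23 in frontal cortex. The ranges overlapped and 10 of 12 animals had the lower level in cerebellum (-0.29 ± 0.09, 1.22-fold lower, limma adjusted p = 0.0054). The call was lost in label batch a alone (-0.23, adjusted p = 0.26) and for the mean of its 2 kept probes (-0.12, adjusted p = 0.067), since the dimmer probe gave 0.04.

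Both alpha2delta genes were lower in cerebellum. Cacna2d1 encodes the alpha2delta protein that binds gabapentin. Its levels were 6.37, 7.30 and 7.57 in cerebellum and 8.62, 8.94 and 9.41 in frontal cortex. The ranges were well apart, and it was 3.52-fold lower (-1.82 ± 0.13, limma adjusted p = 8.6e-13). Its 2 dimmer probes were detected on 3 and 0 of 12 cerebellum arrays, so their fitted -0.35 and -0.78 were limited by the background. Cacna2d3 had levels of 8.41, 8.62 and 8.85 in cerebellum and 9.44, 9.64 and 9.87 in frontal cortex. These did not overlap either, and Cacna2d3 was 1.98-fold lower (-0.98 ± 0.06, limma adjusted p = 9.9e-15).

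Of the 3 intracellular beta subunits, Cacnb4, the gene disrupted in the ataxic lethargic mouse, was higher in cerebellum. Its levels were 11.04, 11.21 and 11.46 in cerebellum and 10.30, 10.65 and 10.83 in frontal cortex. The ranges did not overlap (1.56-fold higher, 0.64 ± 0.06, limma adjusted p = 1e-09, and 0.41 under median scaling), and its dimmer probes gave 0.31 and 2.02. Cacnb1 ranged from 4.80 to 5.69 in cerebellum and from 5.26 to 6.02 in frontal cortex. Its difference of -0.22 ± 0.10 passed narrowly (limma adjusted p = 0.049) and did not pass with the animal as a fixed or random block (adjusted p = 0.061 and 0.051). Leaving out 1 array ended that call in 13 of 24 fits, where the difference ran from -0.16 without male cerebellum replicate 6 to -0.23. Cacnb2 ranged from 6.08 to 6.85 in cerebellum and from 5.80 to 6.98 in frontal cortex, and its difference of 0.11 did not pass (95% interval -0.12 to 0.35, limma adjusted p = 0.39).

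All 6 gamma subunit genes kept passed the test, 3 in each direction, though Cacng8 had passed the filter through frontal cortex alone. Cacng2, Cacng5 and Cacng7 were higher in cerebellum, and Cacng3, Cacng4 and Cacng8 were lower. Cacng2 encodes stargazin, which brings AMPA receptors to the surface of cerebellar granule cells and is disrupted in the ataxic stargazer mouse. Cacng2 levels were 6.86, 7.23 and 7.37 in cerebellum and 5.83, 6.45 and 7.10 in frontal cortex. Only 1 cortex array, of a male, reached the cerebellum range, and the gene was 1.72-fold higher (0.78 ± 0.10, limma adjusted p = 8.1e-08). Cacng7 encodes a type II TARP, a class that modulates AMPA receptor gating. Its levels were 7.69, 8.14 and 8.45 in cerebellum and 6.47, 7.08 and 7.68 in frontal cortex. Although the ranges nearly touched they did not overlap, and Cacng7 was 1.97-fold higher (0.98 ± 0.10, limma adjusted p = 4e-09). Cacng5, the other type II TARP, had levels of 8.94, 9.13 and 9.41 in cerebellum and 7.56, 8.38 and 9.04 in frontal cortex. It was 1.67-fold higher (0.74 ± 0.10, limma adjusted p = 3.6e-07), with 2 dimmer probes at 0.62 and 0.66, and the cortex arrays were the more scattered.

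Cacng3, a type I TARP of forebrain synapses, gave the smallest p of the 26 genes. Cacng3 levels were 5.57, 6.10 and 6.28 in cerebellum and 9.26, 9.54 and 9.81 in frontal cortex. All cerebellum arrays lay far below the cortex arrays (11.4-fold lower, -3.51 ± 0.08, limma adjusted p = 1.8e-23), and a second probe gave -3.74. The arrays with raised cortical markers had 6.18 and 6.28, against 5.57 to 6.25 on the other 10, and without them the difference was -3.55. Cacng4, also a type I TARP, had levels of 5.85, 6.34 and 6.62 in cerebellum and 6.55, 6.90 and 7.39 in frontal cortex. It was lower in cerebellum in 12 of 12 animals (1.56-fold, -0.64 ± 0.09, limma adjusted p = 8.9e-07), with -0.39 in label batch a and -0.77 in label batch b. Cacng8, a type I TARP known from hippocampus, was dim. Its levels were 4.28, 4.41 and 4.78 in cerebellum, with 1 of 12 arrays detected, and 4.62, 4.94 and 5.13 in frontal cortex, with 11 detected. On the background-corrected scale it was at least 1.15-fold lower in cerebellum (fitted -0.50 ± 0.06, limma adjusted p = 2.2e-08).

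**Figure D3:**
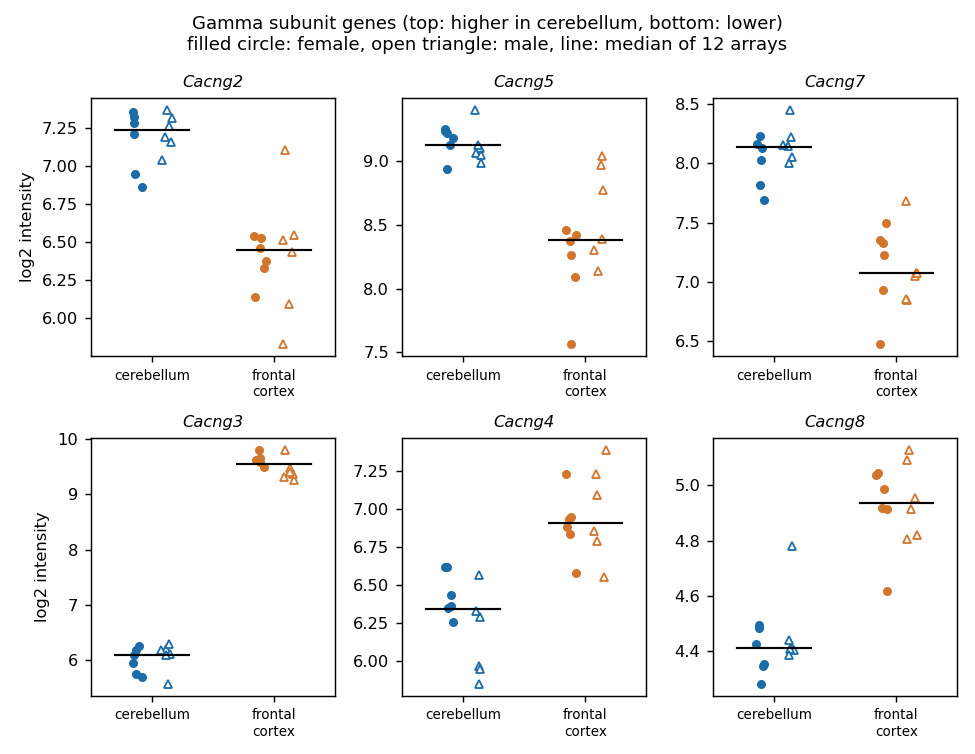
Log2 intensity on each array for the 6 gamma subunit genes, with the genes higher in cerebellum in the top row and the lower ones in the bottom row, cerebellum left of frontal cortex, females as filled circles, males as open triangles and the median of 12 arrays as a line. Cacng3 shows the widest gap, with a median of 6.10 in cerebellum and 9.54 in frontal cortex.

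Several of these genes are neighbours in the genome. Cacng4 and Cacng5 lie next to each other on chromosome 11 with 0 coding genes between them in RefSeq, and passed in opposite directions (-0.64 and 0.74). Cacng7 and Cacng8 adjoin on chromosome 7 and also passed in opposite directions (0.98 and a fitted -0.50). The direction of Cacng8 was largely set by the filter, which it passed through frontal cortex alone. Scn3a and Scn2a adjoin on chromosome 2, with -2.73 and 0.17, where Scn2a was -0.0099 under median scaling. Scn2a and Scn1a, with 3 coding genes between them, were both higher in cerebellum (0.17 and 0.31). Scn2b and Scn4b adjoin on chromosome 9, where Scn2b was higher (0.55) and Scn4b did not pass (-0.16, limma adjusted p = 0.15).

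Upstream sequence is shown for Cacng7, the gamma subunit with the largest difference in the higher direction, and for Cacna2d1, the member of largest difference outside that family with a RefSeq window. Each run is the 250 bases before the RefSeq start on build GRCm38.p6, on the plus strand, at chr7:3332575-3332824 for Cacng7 and chr5:15934441-15934690 for Cacna2d1. Capitals mark matches on either strand to a GC box (GGGCGG) or a CCAAT box (CCAAT), where adjoining GC boxes run together.
Cacng7: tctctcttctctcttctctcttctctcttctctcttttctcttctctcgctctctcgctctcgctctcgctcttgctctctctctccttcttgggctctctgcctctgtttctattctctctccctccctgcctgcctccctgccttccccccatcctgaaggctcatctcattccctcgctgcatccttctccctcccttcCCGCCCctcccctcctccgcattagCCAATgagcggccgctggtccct
Cacna2d1: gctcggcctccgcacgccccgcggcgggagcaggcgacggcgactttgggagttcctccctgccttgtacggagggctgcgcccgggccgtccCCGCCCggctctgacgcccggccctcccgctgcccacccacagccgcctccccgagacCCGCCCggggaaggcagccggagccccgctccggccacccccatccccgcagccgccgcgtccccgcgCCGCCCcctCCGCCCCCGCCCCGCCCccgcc
The stretch before Cacna2d1 holds 6 GC boxes, 36 CpG pairs and 82.4% G and C. Before Cacng7 there are 1 GC box, 1 CCAAT box and 58.0% G and C, with 9 CpG pairs.

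RefSeq windows of 300 bases (250 before and 50 after a start) were found for 19 of the 26 genes, 27 windows in all. A GC box was found in 10 of these windows, against 35.7% of 32851 windows of all genes, and a CCAAT box in 7, against 37.4%. The TATA box letters TATAAA were in 2 windows (13.6% of all), the cAMP response element TGACGTCA in 0 (1.79%), and GGACAGC, a part of the RE1 element, in 1, that of Cacnb1 (6.56%). Both strands were searched, and a match is a description of the letters alone. The median G and C content was 61.0% in the channel gene windows and 52.7% in all windows.

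Of the pacemaker HCN subunits, Hcn3 was lower in cerebellum and Hcn2, the subunit best known from thalamus, did not pass. Hcn3 levels were 5.94, 6.31 and 6.49 in cerebellum and 6.89, 7.11 and 7.34 in frontal cortex. No arrays overlapped, and Hcn3 was 1.75-fold lower (-0.81 ± 0.06, limma adjusted p = 6.6e-12). Hcn2 levels were 8.89, 9.12 and 9.44 in cerebellum and 8.91, 9.09 and 9.33 in frontal cortex. The ranges coincided, and the difference was 0.05 with a 95% interval from -0.08 to 0.18 (limma adjusted p = 0.52). With the run of 6 neighbouring scanner columns as a block it was 0.11 (adjusted p = 0.018).

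The 10 channel genes with a probe that were not kept were Cacna1c, Cacna1f, Cacna1i, Cacna2d4, Cacng1, Cacng6, Hcn4, Scn7a, Scn10a and Scn11a. Cacna1c, an L-type pore of brain and heart, had 7 probes, none of them detected on more than 4 arrays. Scn11a, known from sensory neurons, was detected on 5 cerebellum arrays and 0 cortex arrays, and 5 of the genes were detected on no array. These were Cacna1i, Cacna2d4, Cacng1, Cacng6 and Hcn4. Just inside the rule, Cacna1e was detected on 10 arrays and Cacng8 on 12.

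Of the 26 genes 14 had more than 1 kept probe. For Scn3b the dimmer probes were detected on 0 cerebellum arrays and on each of 12 cortex arrays, so that their fitted -2.14 and -2.29 were limited by the background. Scn2a gave 0.17, 0.17 and 0.13, Scn2b gave 0.55, 0.51 and 0.22, and Scn8a gave -0.01 and -0.03. The second Cacnb1 probe, detected on 1 of 12 cerebellum arrays, gave a fitted -0.61, and the other Cacnb2 probes gave 0.01, -0.07 and -0.06. The second Scn4b probe gave -0.04.

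**Figure D4:**
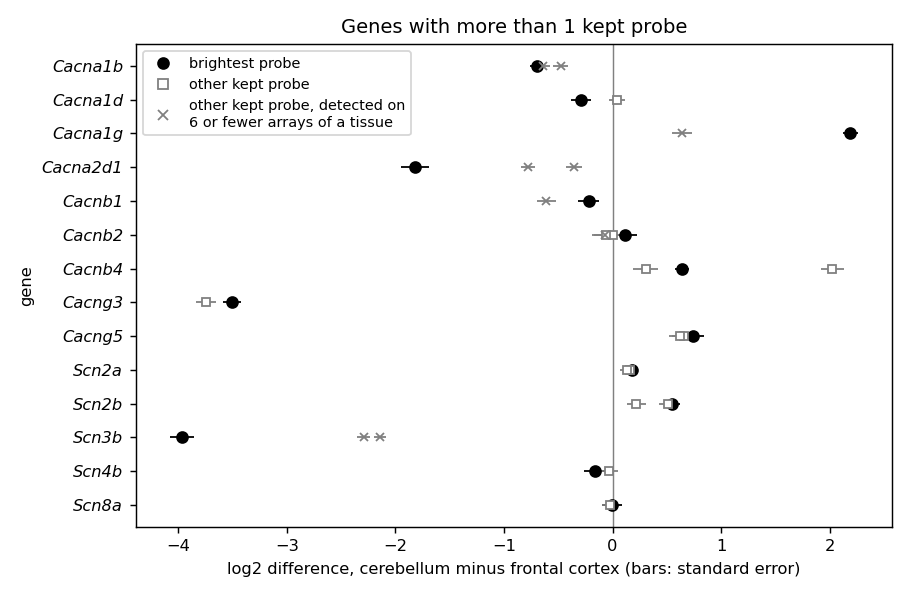
Log2 difference between cerebellum and frontal cortex for every kept probe of the 14 genes with more than 1, with the standard error as a bar, the brightest probe as a filled circle, the others as open squares, and as crosses where a dimmer probe was detected on 6 or fewer arrays of a tissue and its value is limited by the background. The 3 probes of Cacnb4, detected on all 12 arrays of each tissue, ran from 0.31 to 2.02.

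The tissue differences were also read within animals and within each label batch. For 17 of the 26 genes all 12 animals had the same direction, and the share over all kept genes was not computed. In label batches a and b, Scn3b gave -4.09 and -3.90, Cacng3 gave -3.88 and -3.32, Cacna1h gave -3.46 and -3.26, and Scn3a gave -2.74 and -2.73. Cacna2d1 gave -1.91 and -1.77 and Cacna1g gave 2.06 and 2.26. In the sexes taken apart, 21 genes passed in females (background 60.5%) and 19 in males (background 60.7%). Cacna1d, Cacnb1 and Scn2a passed in females and not in males, and Scn4b was lower in cerebellum in males (-0.47, limma adjusted p = 0.0048), against a value of 0.15 in females. The test of the difference between the sexes, given below, did not pass for any of these.

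Genes whose products act with these channels were read from lists chosen for their known roles, with earlier results of these data known. Among 14 kept sodium channel and axon initial segment partners 4 were higher in cerebellum, 6 were lower and 4 did not pass, with a median difference of -0.09. Over all kept genes 70.5% passed, 37.6% higher and 32.9% lower, and the share passing in this list and the next was near that background. Fgf13, an intracellular FGF that binds sodium channel tails, gave -2.04, and Cntnap2, a cell adhesion protein beside the nodes of Ranvier, gave -1.15. Nedd4l, a ubiquitin ligase that removes sodium channels from the membrane, and Nrcam, an adhesion protein of the initial segment, gave -0.96 and -0.91. The limma adjusted p of these 4 was no larger than 1.6e-12.

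Among 18 calcium channel partners 5 were higher, 8 were lower and 5 did not pass (median -0.16). Stx1a, the syntaxin of the presynaptic membrane that binds calcium channels, had the largest difference (-5.95 ± 0.25 SE, limma adjusted p = 9e-18), with a level of 6.56 ± 0.92 (SD, n = 12) in cerebellum and 12.51 ± 0.14 in frontal cortex. Erc2, an active zone scaffold, gave -2.14. The adaptors Stac and Stac2 went apart, with a fitted 1.74 for Stac, which was detected on 4 cortex arrays, and -1.38 for Stac2.

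Beside the gamma subunits, 5 other AMPA receptor auxiliary or scaffold genes were kept. Of these 1 was higher and 4 were lower in cerebellum (median -2.50), against 37.6% and 32.9% of all kept genes. The lower ones were Cnih3, a cornichon (-3.88), Shisa7 (-3.59), Gsg1l (-2.50) and Dlg4, a postsynaptic scaffold (-0.84). Of 4 HCN partners 2 were higher and 1 was lower, where 70.5% of all kept genes passed in either direction. Ppp1r9b, the phosphatase-targeting protein spinophilin, gave -0.98, and Flna, the actin cross-linker filamin A, gave 0.37. Kcne2, an accessory subunit that is also abundant in choroid plexus, gave 0.89, with a level of 5.24 ± 1.00 (SD, n = 12) in cerebellum and 0 cortex arrays detected. The mean of the 4 kept choroid plexus markers ranged from 5.91 to 9.63 across cerebellum arrays and from 4.63 to 5.82 across cortex arrays, and its part in the Kcne2 value was not tested.

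Of 10 other intracellular or leak channels 5 were higher and 2 were lower (median 0.37), a share near the 70.5% of all kept genes that passed. Tpcn2, an endolysosomal cation channel detected on 6 of 12 cortex arrays, gave a fitted 1.82. The inositol trisphosphate receptor genes Itpr2 and Itpr3 gave 1.40 and 0.68, and Ryr1, a ryanodine receptor, gave 1.03. All these differences passed in limma, with adjusted p no larger than 6.9e-09. The 2 lower genes, Ryr3 and Unc79, gave -0.60 and -0.22 (limma adjusted p = 7.7e-07 and 0.00033).

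The comparison of the sexes addressed the aim stated for the series, transcripts of the female cerebellum. No channel gene differed between female and male cerebellum after adjustment (limma, 0 of 26, against 0.114% of all kept genes). At an unadjusted p under 0.05 there were 4 (background 5.46%), namely Scn8a (0.31), Cacng4 (0.28) and Hcn2 (0.20), with the higher fitted level in females, and Scn3a (-0.25), with the lower. Their adjusted p were 0.8 to 0.87. In frontal cortex 0 of 26 passed likewise (background 0.157%), and 4 had an unadjusted p under 0.05 (background 9.07%). These were Cacna2d1 (0.38) and Cacna1a (0.31), and Cacng5 (-0.40) and Scn4b (-0.54). The difference between the sexes was tested against tissue as an interaction, and 0 of 26 passed (background 0.0787%), with 4 at an unadjusted p under 0.05 (background 6.8%). The largest interaction was that of Scn4b (0.62 ± 0.20 SE, limma adjusted p = 0.47).

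The frontal cortex values of Scn4b were read by sex and label batch, and beside the marker lists. Its levels were 9.20, 9.84 and 10.05 (lowest, median, highest) on the 6 female cortex arrays and 9.91, 10.36 and 10.81 on the 6 male ones. The highest values were those of 4 male arrays of label batch b, at 10.31 to 10.81, against 9.20 to 10.05 on the other 8 cortex arrays. The sex difference of -0.54 ± 0.14 did not pass (limma adjusted p = 0.11), but did so with the label batch as a block (adjusted p = 0.024), in label batch b alone (-0.63, adjusted p = 0.005) and without male frontal cortex replicate 1 (-0.62, adjusted p = 0.036). Within label batch a it was -0.36. All these values are of the brightest probe. The second, dimmer Scn4b probe, detected on 12 of 12 cortex arrays, gave a sex difference of -0.11 there (limma adjusted p = 0.9).

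On the same 4 male arrays the mean of the 4 kept striatal neuron markers (Drd1, Drd2, Ppp1r1b and Rgs9, of 7 listed) was 9.53 to 9.87, against 7.33 to 8.95 on the other 8 cortex arrays. Of 13 marker lists 3 did not overlap between these sets of arrays. The others were the choroid plexus list, at 5.65 to 5.82 against 4.63 to 5.39, and the cerebellar granule cell list, at 5.53 to 5.73 against 5.18 to 5.45. The remaining lists overlapped between the sets, and no correlation was computed. Cacng5 was 8.39 to 9.04 on these 4 arrays and 7.56 to 8.46 on the other 8, and passed in label batch b alone (-0.50, limma adjusted p = 0.048). The part of any of these 3 lists in the Scn4b and Cacng5 values was not tested.

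**Figure D5:**
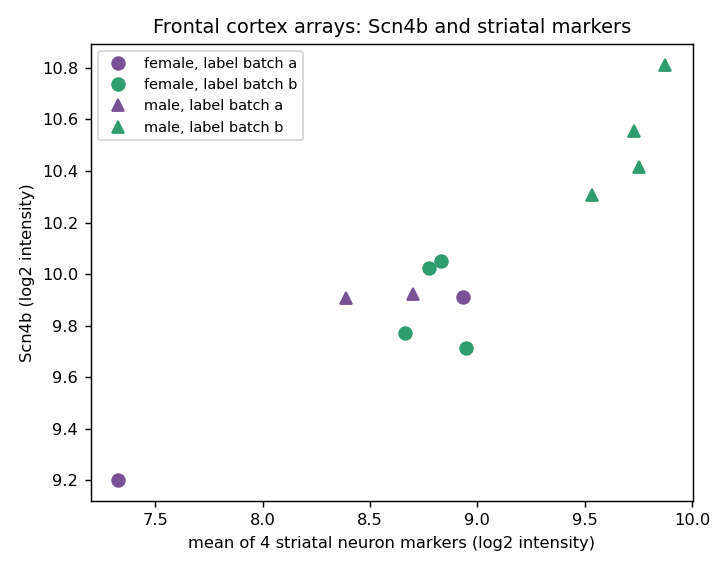
Scn4b level, by its brightest probe, against the mean level of 4 striatal neuron markers on the 12 frontal cortex arrays, both as log2 intensity. Females are circles, males are triangles and the label batch is given by colour. The 4 male arrays of label batch b stand apart at the upper right, at 10.31 or more for Scn4b and 9.53 or more for the markers.

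The size of the differences, rather than their direction, moved with the background correction. Without any correction 10 of the 21 called genes moved by more than 1.5 times, namely Cacna1a, Cacna1b, Cacna1d, Cacnb1, Cacng2, Cacng4, Cacng8, Hcn3, Scn3a and Scn3b, and the median ratio to the values above was 0.674. In the authors' own normalized values 8 of the 21 moved that far, at a median ratio of 0.729. Cacnb1 lost its call in both (limma adjusted p = 0.062 and 0.06). In the authors' values Scn3b gave -2.58, Cacng3 gave -2.77, Cacna1h gave -2.42, Scn3a gave -1.69, Cacna2d1 gave -1.51 and Cacna1g gave 1.78.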

How the data were processed

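Total RNA was amplified, biotin-labelled and hybridised to 24 Illumina mouse arrays, per the labels, which name Partek among the processing tools. The deposited scanner table held mean bead intensity per probe on a linear scale, its standard error, the count of beads and a detection p-value, per the file headers. The authors' normalized intensity table ranked the probes of each array as the scanner table did, and was an alternative on a log2 scale. Its processing is otherwise not given in the sources used here, nor is a genome build.

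Background correction and quantile normalization of the intensities used neqc (limma 3.58.1, R 4.3.3, offset 16), which infers negative controls from the detection p-values, and log2 intensity was tested. The filter kept 21113 of 45281 probes, those whose detection p was under 0.05 for 6 or more arrays. With lmFit and eBayes, 1 mean per group was estimated from the 24 arrays, and contrasts were tested in either direction with Benjamini-Hochberg adjustment over all kept probes at 0.05. The test was checked on simulated data. A gene was called past the threshold by its brightest kept probe, and limma gave every adjusted p.

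Both tissues of an animal share its label, which pairs them. Deviations from the group means of an animal's arrays correlated at -0.30 to 0.24, over 0.1 in 5 of 12 pairs, and the fit held no animal term. Members and gene lists were chosen with earlier results of these data known. Values are given in full for members differing by 1 or more on the log2 scale, for the brightest of each family and for most others. Up to 4 partners per list were named by the size of a difference past the threshold. For the intracellular and leak channels the 2 lower genes were named besides, whatever their size. The marker lists for oligodendrocytes, astrocytes, microglia, endothelium, red cells and muscle were read as well. The medians of their tissue differences were 0.43, 1.04, -1.21, 0.12, 0.59, and -1.13 and -0.68 for skeletal and cardiac muscle. That of the striatal list was -2.54. The red cell, skeletal and cardiac muscle values rest on 2, 2 and 1 kept genes. Of 5 astrocyte markers 3 were higher in cerebellum, 1 was lower and 1 did not pass. Of 5 endothelial markers 2 were higher and 3 did not pass. Sequences come from RefSeq tables of build GRCm38.p6. Alternatives covered background correction, scaling, filters, probe choice, moderation, array weights, label batch, scanner run, replicate block and leaving out arrays.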

Additional observations from a re-analysis of the deposited data

Results flagged for a closer look

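In 11 combinations of a gene and a group, out of 26 genes in 4 groups, 1 of the 6 arrays lay far from the other 5 by Dixon's criterion, where chance alone gives about 5.2, or 1 in 20. Male cerebellum held 6 of them. Cacna2d1 was low on replicate 1 (6.37 log2 units, others 7.18 to 7.57), Cacnb1 was low on replicate 6 (4.80, others 5.47 to 5.69), and Cacng8 was high on replicate 1 (4.78, others 4.39 to 4.44). On replicate 2, Cacng3 was low (5.57, others 6.09 to 6.28), Cacng5 was high (9.41, others 8.99 to 9.13) and Scn1a was low (6.80, others 7.25 to 7.41). In female cerebellum Hcn3 was low on replicate 1 (5.94, others 6.29 to 6.46), and Scn3b was high on replicate 4 (5.47, others 4.33 to 4.54), an array with raised cortical markers. In female frontal cortex Cacng8 was low on replicate 4 (4.62, others 4.92 to 5.04). In male frontal cortex Cacnb4 was low on replicate 5 (10.3, others 10.56 to 10.68) and Cacng7 was high on replicate 1 (7.68, others 6.85 to 7.08). No cause of these values was tested.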

How the results depend on the processing

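Across 42 alternatives, 24 of which left out 1 array, 17 of the 21 called tissue differences kept their direction and their call in every alternative that could be run. The others were Cacna1d, Cacnb1, Scn1a and Scn2a, and Scn2a turned to -0.0099 under median scaling (adjusted p = 0.92). The count of probes past the threshold was 14315, from 14032 to 14270 with 1 array left out and from 10587 to 15311 otherwise. The channel genes higher in cerebellum numbered 7 to 10 and the lower ones 10 to 13 across all alternatives. With the replicate block, that is the animal fixed, Cacnb1 (-0.22, adjusted p = 0.061) lost and Scn4b (-0.16, adjusted p = 0.041) gained a tissue call, and no other tissue call changed. For the sex difference in frontal cortex the count of 0 became 1 with the label batch as a block, 2 in label batch b alone, 1 with the replicate block by replicate number, which pairs nothing in the labels across sexes (Scn4b, adjusted p = 0.018), and 0 to 1 with 1 array left out. The sex counts in cerebellum and for the interaction were 0 in every alternative. Stricter filters dropped Cacna1e and Cacng8, and the mean of kept probes gave no count over all probes. Cacna1e and Cacng8 in both tissues, and Cacna1b and Scn3b in cerebellum, lie near the detection limit. Without background correction called differences were 0.364 to 0.964 times those reported.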
